A study of Mus musculus with 24 samples.

Results

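The clustered protocadherins are 3 families of cell-surface cadherins, alpha, beta and gamma, whose genes stand in a row on mouse chromosome 18. Members were chosen by symbol alone, as every gene named Pcdha, Pcdhb or Pcdhg followed by a number or by an A, B or C type and a number. This gave 58 of the 51912 genes in the deposited table, of which 14 were alpha, 22 beta and 22 gamma members.

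RNA had been sequenced from the dissected archicortex (ARK), the medial edge of the embryonic forebrain that holds the dentate neuroepithelium (DNE) and the cortical hem (CH), in 24 libraries of 6 groups of 4. All embryos were of a mixed C57BL/6J;MF1 strain, and all 6 groups carried a Cre, controls included. Sox9fl/fl;Sox1Cre mutants at E13.5 (A1 to A4) and at E12.5 (A9 to A12) were compared with Sox9+/+;Sox1Cre controls of the same age (A5 to A8 and A13 to A16). Sox9fl/fl;NestinCre mutants at E13.5 (A17 to A20) were compared with Sox9+/+;NestinCre controls (A21 to A24). The Cre lines differ in where Sox9 is lost. The targeted Sox1Cre allele deletes it early in the neural plate and so in all of the ARK, whereas the NestinCre transgene deletes it later, in the DNE but hardly in the CH. The labels do not say which embryos were littermates, and in bulk tissue fewer cells of a type and less RNA per cell cannot be told apart.

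Each alpha and gamma gene has its own first exon with its own promoter, and that exon is spliced to constant exons that all members of the cluster share. Beta members are made of a single variable exon with no constant part. The proteins bind the same isoform on a facing cell, and neurons that switch on different sets of isoforms use them to tell their own branches from those of other cells. The alternate isoforms (A and B types, and most alpha and beta genes) are known to be chosen at random in a single neuron, by CTCF and cohesin at their promoters and with DNA methylation at those that stay silent, whereas the C types Pcdhac1, Pcdhac2, Pcdhgc3, Pcdhgc4 and Pcdhgc5 are chosen in a more uniform way. In bulk tissue such choices are averaged over many cells.

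In the GRCm38 annotation all members lie on the plus strand of chromosome 18. The alpha cluster spans 36930184 to 37187661, the beta cluster 37264938 to 37524479 and the gamma cluster 37661793 to 37841873. For Pcdhgc3, 38.5% of the exon length is shared with other gamma members, and for Pcdha9 53.5% is shared with other alpha members. Reads from these shared exons are divided among the members by the counting program, so a level of a single alpha or gamma isoform rests in part on that estimate. Beta members share no exon, apart from Pcdhb21 and Pcdhb22 with 455 bp. Reads from a member and from an antisense gene cannot be told apart either, since the strand setting was not stated. Such a gene overlaps Pcdhgc3 (BC037039, mean normalised count 43.4), Pcdhga10, Pcdhgb7, Pcdhga11 and Pcdhga12 (Gm26672, mean 65.9) and 1 of the 2 genes that bear the symbol Pcdha11 (Gm10544, mean 23.2).

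Sox9 was first examined in each library, as a check of the labels. Its normalised read count was 3563, 2828, 3384 and 3677 in Sox1Cre mutants at E13.5 and 5218, 5911, 5450 and 5731 in their controls. At E12.5 it was 2785, 1733, 2593 and 1928 in mutants and 4391, 5265, 4237 and 4194 in controls. It was 3089, 2997, 3083 and 3369 in NestinCre mutants and 5636, 4979, 4586 and 5406 in NestinCre controls. Every mutant library lay below every control library of its comparison, and Sox9 fell by 0.74, 1.02 and 0.71 on the log2 scale respectively (limma, adjusted p = 0.0021, 6.3e-05 and 0.0297). The paper states that the first exon of the conditional allele remains and is still expressed after recombination, while the later exons are lost. Counts over the whole gene can thus understate the loss and do not measure how fully each line deleted Sox9. Archicortex markers (8 genes, of which Lhx2 was the most abundant) and progenitor markers (8 genes, led by Vim) were present in all libraries, with summed normalised counts of 21343 or more and 58220 or more.

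Gamma members made up most of the clustered protocadherin RNA of the ARK. Over the 24 libraries, 88.8% ± 1.95 (SD, n = 24) of the summed normalised count of all members came from the gamma cluster, 7.97% ± 1.43 from the beta cluster and 3.19% ± 0.627 from the alpha cluster. Divided by exon length, the median member stood at 76.9 normalised counts per kb in the gamma cluster, 12.8 in the beta cluster and 3.63 in the alpha cluster, against 106 for the median of all genes tested. The median member of each cluster was thus below the median of all genes tested.

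**Figure D1:**
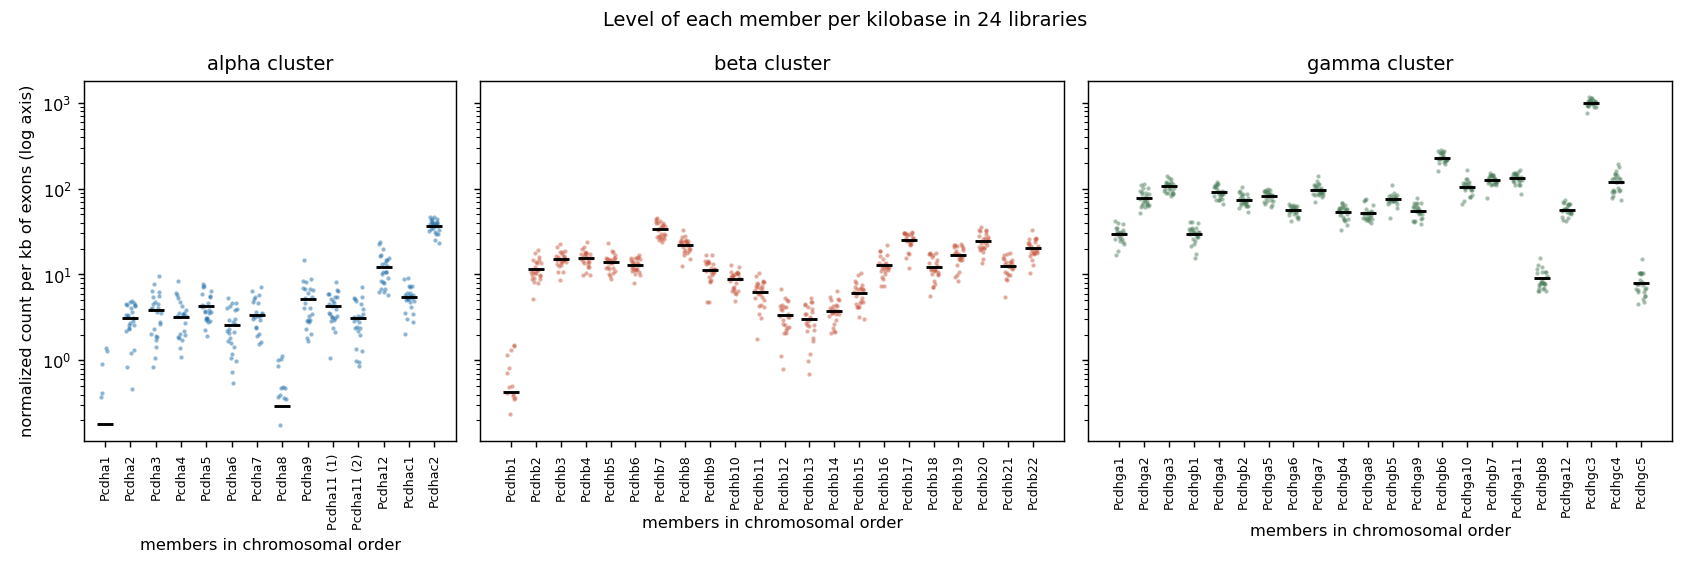
Normalised count per kb of exons (log axis) of each member, in chromosomal order within the alpha, beta and gamma clusters; each dot is 1 of 24 libraries, the black bar is the mean, and libraries with no read are not drawn. Pcdhgc3 stands above all others at 1000 per kb, and Pcdha1 and Pcdhb1 are lowest in their clusters.

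A single isoform dominated the gamma cluster. Pcdhgc3, a C type gene that is expressed beyond neurons and is known to act in Wnt signalling through Axin1, stood at 999.7 normalised counts per kb, higher than 93.2% of all genes tested, and accounted for 39.4% ± 2.4 (SD, n = 24) of the gamma total. Next came the B type Pcdhgb6 at 229.8 per kb and the A type Pcdhga11 at 132.1. Pcdhgc4, the gamma isoform required for the survival of interneurons, was at 120.2 per kb, higher than 53.1% of all genes tested. Pcdhgc5, its neighbour and the last variable exon of the cluster, was the lowest gamma member at 7.92 per kb. So the 3 gamma C types included both the highest and the lowest member of the cluster.

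The alpha cluster was likewise led by a C type. Pcdhac2, which serves in serotonergic axon tiling, reached 37.1 per kb and took 44.5% ± 7.71 (SD, n = 24) of the alpha total. The alternate isoform Pcdha12 followed at 12.2 per kb, and the other alpha C type, Pcdhac1, at 5.41. Pcdha1 was lowest, with no read in 19 of the 24 libraries. In the beta cluster no member stood out in this way: Pcdhb7 was highest at 33.5 per kb, followed by Pcdhb17 at 25.2, and the highest member was 2.62 times the median member, compared to 13 times in the gamma and 10.2 times in the alpha cluster. Pcdhb1 was lowest at 0.424 per kb. Counted per kb of unshared exon in place of all exons, Pcdha4 moved to rank 2 of the alpha cluster and Pcdhga4 to rank 3 of the gamma cluster, while Pcdhac2, Pcdhb7 and Pcdhgc3 stayed first.

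A normalised count of at least 10 in at least 4 libraries was required for testing. This kept 55 of the 58 members (12 alpha, 21 beta and 22 gamma). Pcdha1, Pcdha8 and Pcdhb1, with means of 0.982, 1.59 and 1.1, were not tested. The other alpha members were low too, since the median alpha member had a mean of 21.6, and they varied most between replicates. The median within-group SD on the log2 scale was 0.649 for alpha, 0.329 for beta and 0.218 for gamma members, and 0.171 over all 16454 genes tested. Genes of all kinds with a mean from 10 to 100 had a median SD of 0.457, above the 0.341 of the beta members in that range and below the 0.707 of the alpha members. Gamma members with a mean from 100 to 1000 had a median SD of 0.218, against 0.156 for all genes of that range.

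Some libraries stood apart across a whole cluster. In A5, a Sox1Cre control at E13.5, 20 of 21 beta members lay below their group mean, with a median deviation of -0.56 on the log2 scale. In the Sox1Cre mutants at E12.5, all 21 beta members lay above the group mean in A11 (median 0.56) and all 21 lay below it in A12 (median -0.35). The alpha cluster deviated in the same direction in these libraries, by -0.61, 0.43 and -0.45. The gamma cluster moved less, by -0.22, 0.11 and -0.03. A1, a Sox1Cre mutant at E13.5, had a gamma median of -0.23, the lowest of its group, and a beta median of -0.08.

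**Figure D2:**
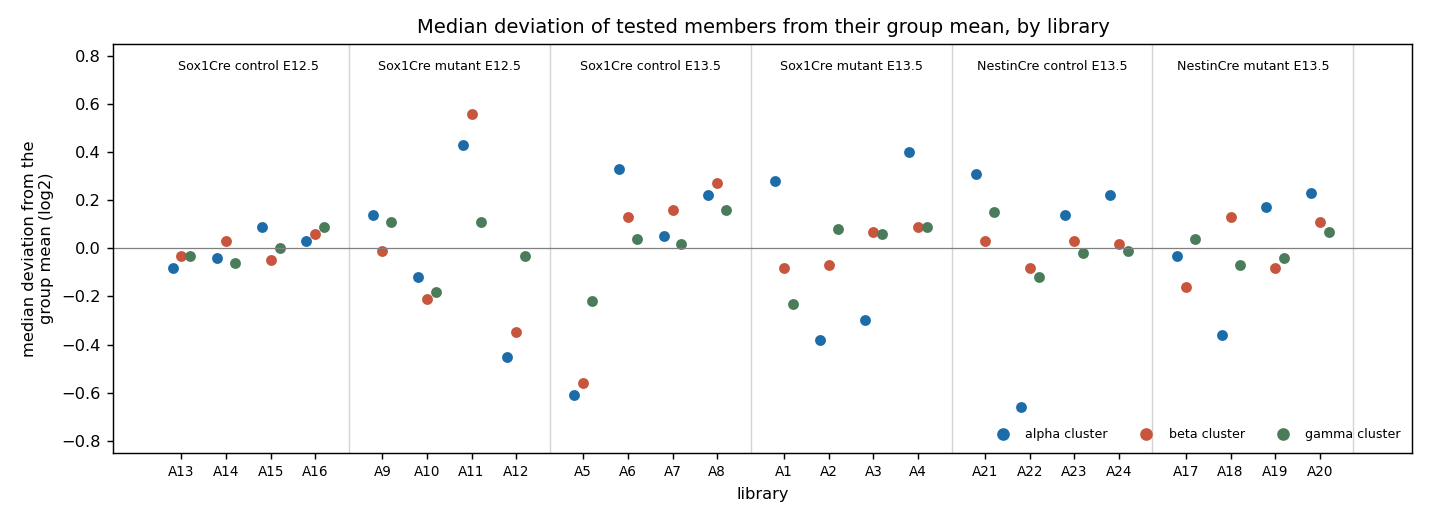
Median deviation of the tested alpha, beta and gamma members from their group mean (log2), for each of 24 libraries ordered by group; 0 is the group mean. A5 and A12 are low and A11 is high for both alpha and beta members, and A22 is low for alpha members, at -0.66.

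Beta members moved together from library to library. Between pairs of beta members the deviations from the group mean had a median Pearson correlation of 0.46, and 95.7% of 210 pairs were positive, over 24 libraries that share their depth and normalisation for both genes. Without A5, A11 and A12 the median was 0.10 and 64.3% were positive. For gamma pairs the median was 0.26 with all libraries and 0.23 without those 3, for alpha pairs 0.13 and 0.14. Pairs of genes within 500 kb of the clusters had medians of 0.098 and 0.064. Reads on genes numbered 20986159 in A5, 27085995 in A11 and 18413440 in A12. A12 had the highest summed count of CH markers of all libraries, 63884, and the lowest of archicortex markers, 21343. The part of depth and of these markers in the deviation was not tested.

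At E13.5, beta totals were higher in Sox1Cre mutants than in most of their controls. The summed normalised count of the beta cluster was 1423, 1403, 1536 and 1536 in mutants and 784, 1215, 1280 and 1413 in controls, that is 1474 ± 71.5 and 1173 ± 272 (SD, n = 4), a log2 ratio of 0.33. The groups overlapped, since the control A8 exceeded the mutant A2, and without the low control A5 the ratio was 0.18. Alpha totals were 641, 529, 524 and 750 in mutants and 418, 577, 511 and 542 in controls. They overlapped as well, with a log2 ratio of 0.25 that was 0.17 without A5 and ranged from 0.14 to 0.32 when 1 library was left out. The 2 highest libraries, A1 and A4, also had the highest summed counts of neuron markers of all 24 libraries, 54429 and 54655. The part of neurons in the alpha totals was not tested. Gamma totals were 11107, 14073, 13648 and 14194 in mutants and 12880, 14193, 14823 and 15297 in controls, a log2 ratio of -0.11 with overlap that was -0.03 without the low mutant A1.

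**Figure D3:**
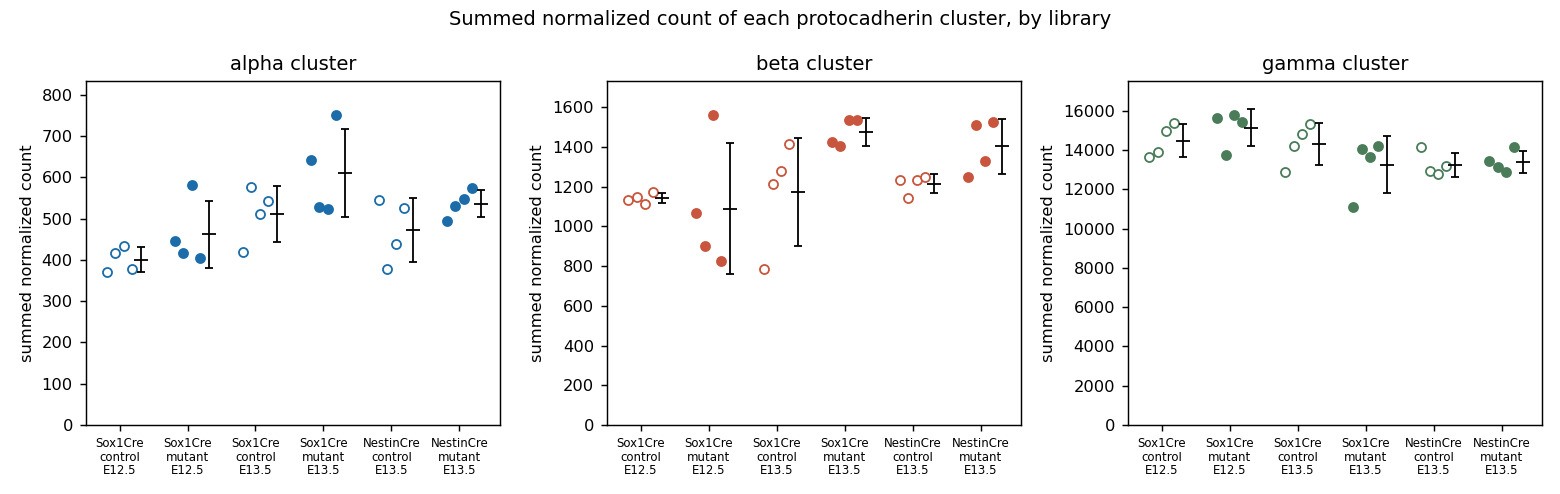
Summed normalised count of the alpha, beta and gamma clusters (vertical axes, from 0) by group; each dot is 1 library, filled for mutants and open for controls, and the bar is the mean ± SD of 4 libraries. Within each cluster the groups overlap in all 6 comparisons between groups.

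The beta share of all clustered protocadherin counts did separate the groups, at 9.67% ± 0.863 in Sox1Cre mutants at E13.5 (lowest 8.77%) and 7.27% ± 1.16 in controls (highest 8.19%; SD, n = 4 each). The share in the other groups was 6.47% ± 1.59 in mutants and 7.15% ± 0.371 in controls at E12.5, 9.14% ± 0.715 in NestinCre mutants and 8.13% ± 0.366 in NestinCre controls. Since this share is a ratio within the locus, a lower gamma count raises it as much as a higher beta count does.

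None of the 55 members tested passed the threshold between Sox1Cre mutants and controls at E13.5, whereas 0.924% of all genes did (limma, adjusted p under 0.05). At an unadjusted p under 0.05 there were 7 members, 12.7% of those tested, against 11.7% of all genes. edgeR called none and DESeq2 called 1, Pcdhgc3. The median log2 fold change was 0.43 for alpha members, of which 11 of 12 were positive, 0.36 for beta members, of which 20 of 21 were positive, and 0.03 for gamma members. The median of all genes was -0.005, with 48.6% positive. Beta members moved together from library to library, as given above, so the signs of members are not separate observations. The low control A5 enters these values. Without it the medians were 0.19, with 7 of 12 alpha members positive, 0.15, with 17 of 21 beta members positive, and -0.08 for gamma members. Without the low mutant A1 they were 0.32, with 10 of 12 alpha members positive, 0.36, with 21 of 21 beta members positive, and 0.13 for gamma members. The sign of the gamma median thus depended on which library was left out. Among the markers of cell types, the progenitor gene Vim (-0.26, adjusted p = 0.0289) and the Cajal-Retzius cell gene Ebf3 (-0.32, adjusted p = 0.0352) were lower in these mutants. Most progenitor markers went the other way, with 5 of 8 positive and a median of 0.12. Of the Cajal-Retzius cell markers, 5 of 7 were negative, with a median of -0.07. The part of these markers in the values of the protocadherins was not tested.

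Pcdhgc3 had the lowest p of the members in this comparison. Its normalised count was 4193, 5221, 4983 and 5032 in mutants and 5676, 5718, 6327 and 5868 in controls. All 4 mutants were below all 4 controls, with means of 4857 ± 455 and 5897 ± 298 (SD, n = 4). The log2 fold change was -0.28 with a standard error of 0.0697 (95% interval -0.43 to -0.14), and its adjusted p was 0.0561 in limma, 0.0505 in edgeR and 0.0108 in DESeq2. It thus lay near the threshold in these 3 tools. It passed in 1 of 9 other settings and in 1 of 9 fits that left out 1 or 2 libraries, with adjusted p in limma up to 0.325 and 0.153 respectively. Without A1 the log2 fold change was -0.21 (adjusted p = 0.0704). A1 held 7656 summed normalised counts of choroid plexus markers (7 genes, led by Ttr), against 64801 to 87153 in the other 3 mutants, and what part this plays was not tested. The share of Pcdhgc3 in the gamma total did not overlap either, with 36.7% ± 0.974 in mutants and 41.4% ± 2.53 in controls. Without Pcdhgc3 the gamma total was 8398 ± 1010 in mutants and 8401 ± 914 in controls. The other gamma C types overlapped between the groups, with log2 fold changes of -0.13 for Pcdhgc4 (95% interval -0.56 to 0.30) and -0.21 for Pcdhgc5 (-0.64 to 0.22).

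Among beta members, Pcdhb7, Pcdhb16, Pcdhb17 and Pcdhb22 were higher in every Sox1Cre mutant than in every control at E13.5, and Pcdhgc3 was the only member lower in every mutant. Groups failed to overlap for 5 of 55 members in this way, and for 5.06% of all genes tested. Pcdhb16 was 70.3, 86.0, 97.4 and 96.9 in mutants and 38.5, 56.9, 67.1 and 62.8 in controls. Its log2 fold change was 0.65 with a standard error of 0.213, which did not pass the threshold (adjusted p = 0.185 in limma). Both Pcdha11 genes had the largest positive values among members with a mean of at least 20, 0.93 for the one that overlaps Gm10544 and 0.80 for the other, with adjusted p of 0.469 and 0.441. Single libraries moved both, the former to 0.62 without A7 and the latter to 0.39 without the low control A5. At the other end, Pcdhgb7 had -0.32 (adjusted p = 0.315), which was -0.15 without A1.

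In NestinCre mutants compared to controls, the totals of all 3 clusters overlapped and no single isoform passed the threshold. Beta totals were 1248, 1508, 1327 and 1525 in mutants and 1232, 1142, 1233 and 1250 in controls, a log2 ratio of 0.21, and 3 of 4 mutants lay above all controls. Gamma totals were 13398 ± 549 and 13258 ± 612 (SD, n = 4), and alpha totals 536 ± 33.4 and 472 ± 77.6, a log2 ratio of 0.18 that was 0.09 without the low control A22. No member passed the threshold in limma, edgeR or DESeq2, compared to 0.0669% of all genes in limma. At an unadjusted p under 0.05 there were 4 members, 7.27% of those tested, against 6.47% of all genes. Median log2 fold changes were -0.02, 0.21 and -0.01 for alpha, beta and gamma members. Groups did not overlap for 6 members (background 4.98%), of which Pcdhac2, Pcdhb8, Pcdhb13, Pcdhb22 and Pcdhga9 were higher and Pcdhgb6 lower in mutants. The mutant A18 held 697 summed normalised counts of ventral telencephalon markers (9 genes, led by Lhx6, 4 with a mean under 10), against 23.1 to 116 in the other 23 libraries. No member passed the threshold without A18 either.

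Pcdhac2, the main alpha isoform, was 230, 262, 236 and 238 in NestinCre mutants and 176, 217, 138 and 196 in their controls. All mutants were above all controls, and its log2 fold change was 0.43 with a standard error of 0.141 and an adjusted p of 0.508. In Sox1Cre mutants it was 0.00 at E13.5 (95% interval -0.29 to 0.30) and 0.37 at E12.5 (adjusted p = 0.257). The difference between the changes in the 2 Cre lines at E13.5 was -0.43 and did not pass the threshold (adjusted p = 0.584). Pcdhb13, a low beta member, was 17.8, 17.8, 13.7 and 14.8 in NestinCre mutants and 6.70, 6.19, 8.30 and 9.59 in controls. Its log2 fold change was 0.98 (adjusted p = 0.614). Of members with a mean of at least 20, Pcdha3 (0.70) and Pcdhb2 (0.52) had the largest positive values and Pcdha9 (-0.66) and Pcdhgb1 (-0.30) the largest negative ones, with adjusted p from 0.769 to 0.953. Without A18 the value of Pcdhgb1 was -0.10, without A20 that of Pcdha9 was -0.41, and without A19 that of Pcdha3 was 0.46. Pcdhgc3 was at 5363 ± 329 in NestinCre mutants and 5419 ± 380 in controls, a log2 fold change of -0.01 with a 95% interval from -0.16 to 0.13.

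A day earlier, at E12.5, the totals of mutants and controls overlapped in all 3 clusters of the Sox1Cre line. Gamma totals were 15618, 13765, 15756 and 15407 in mutants and 13639, 13902, 14975 and 15388 in controls. Beta totals were 1068, 903, 1558 and 823 in mutants and 1134, 1150, 1113 and 1174 in controls. The beta totals of the mutants thus lay on both sides of the controls, which were close to each other, and the log2 ratio of -0.07 became -0.29 without A11 and 0.04 without A12. Alpha totals were 462 ± 81.2 in mutants and 400 ± 30.3 in controls (SD, n = 4), a log2 ratio of 0.21 that was 0.08 without A11. No member was past the threshold in limma, edgeR or DESeq2, while limma called 0.723% of all genes, and 4 members (7.27%) had an unadjusted p under 0.05, against 2217 of all 16454 genes. Pcdhga9 and Pcdhgb4 were higher in every mutant than in every control, and 10.3% of all genes did not overlap. Median log2 fold changes were 0.06, -0.14 and 0.11 for alpha, beta and gamma members. The beta median was -0.32 without A11, with 0 of 21 members positive, and -0.05 without A12, with 8 of 21. Neurod4, a marker of intermediate progenitors, was higher in the mutants (1.71, limma, adjusted p = 0.0417), though 3 of the 5 markers of that list were negative. All 8 archicortex markers were negative, 3 of them at an unadjusted p under 0.05 in limma, with sums of 27988 in mutants and 33941 in controls. All 8 CH markers were positive, with sums of 49137 in mutants and 42718 in controls. The part of these markers was not tested.

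Of single isoforms at E12.5, the B type Pcdhgb4 was at 375 ± 21.5 in mutants and 279 ± 41.4 in controls (SD, n = 4), with a log2 fold change of 0.43 and an adjusted p of 0.208. Pcdhgc3 was at 5707 ± 369 and 5740 ± 375, a log2 fold change of -0.01 with a 95% interval from -0.15 to 0.14. The largest values among members with a mean of at least 20 were 0.82 for the Pcdha11 gene that overlaps Gm10544, 0.46 for Pcdha12, -0.70 for Pcdha9 and -0.30 for Pcdhb19, with adjusted p from 0.430 to 0.643. Single libraries moved 3 of these, with 0.20 for Pcdha12 without A11, -0.46 for Pcdha9 without A13 and -0.15 for Pcdhb19 without A12.

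Whether the change upon loss of Sox9 differed between settings was tested directly. Between the Sox1Cre and NestinCre lines at E13.5, 0 of 55 members passed (limma, edgeR and DESeq2), with 4 at an unadjusted p under 0.05 (7.27%, against 8.27% of all genes), and limma called 0.0425% of all genes. Between E13.5 and E12.5 in the Sox1Cre line no member passed with any of the 3 tools, 4 were at an unadjusted p under 0.05 (against 7.4% of all genes), and limma called no gene at all (0.0%). For Pcdhgc3 the change at E13.5 was more negative than in NestinCre mutants by 0.27 (adjusted p = 0.379) and more negative than at E12.5 by 0.28 (adjusted p = 0.604). For Pcdhb16 the change at E13.5 was more positive than at E12.5 by 0.88 (adjusted p = 0.603). All 21 beta members, against 49.2% of all genes tested, had a more positive change at E13.5 than at E12.5. These members come from the same libraries and moved together, so they are not 21 separate observations. The median difference of the beta members was 0.44. The low control A5 and the high mutant A11 both enter that difference. Without A5 it was 0.27, with 20 of 21 members positive, and without A11 it was 0.60, while without the low mutant A12 it was 0.34, with 19 of 21 positive. No member passed in any of these fits. Sex was unbalanced in this difference and in both comparisons of mutants with controls behind it. Xist, the RNA of the inactive X chromosome, was over 100 in 0 of 4 controls at E13.5 and in 4 of 4 at E12.5. It was over 100 in 2 of 4 mutants at each age. Sex and loss of Sox9 are thus not fully told apart here.

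**Figure D4:**
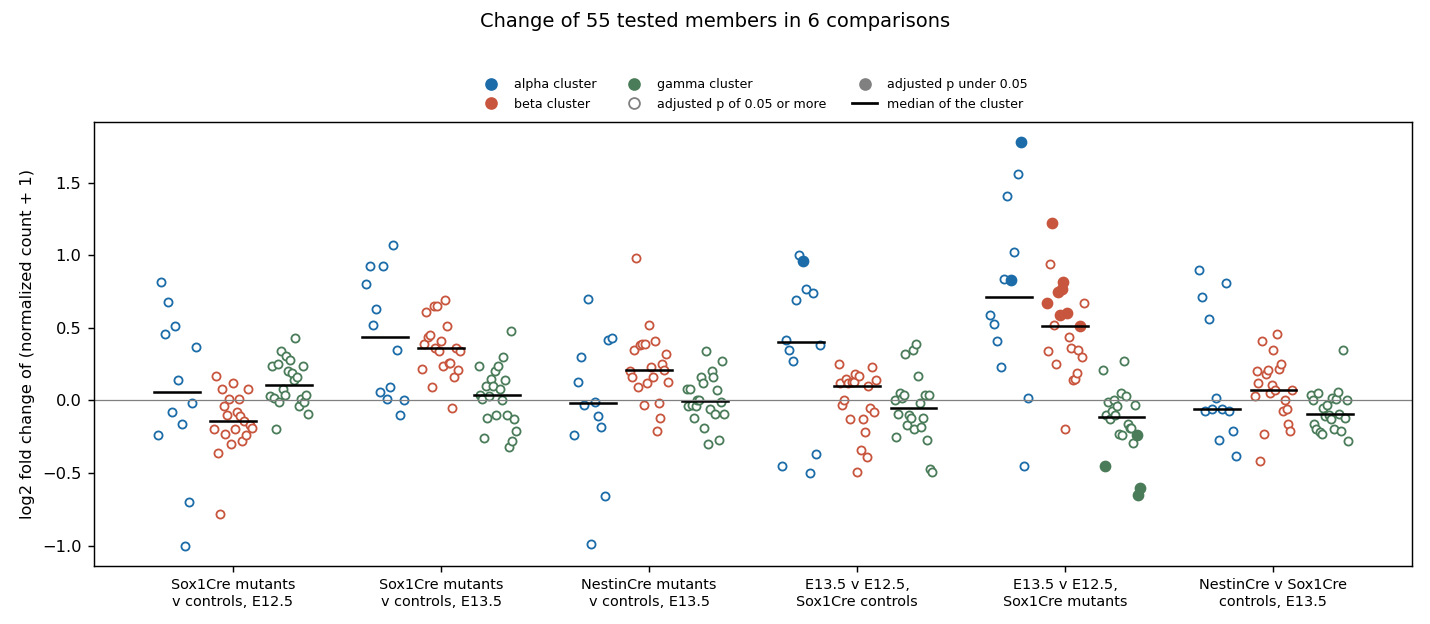
Log2 fold change of normalised count + 1 of the 55 members tested (vertical axis) in 6 comparisons, by cluster; filled dots have an adjusted p under 0.05 and black lines mark the cluster's median. Filled dots appear only between ages, 1 in Sox1Cre controls and 14 in Sox1Cre mutants.

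In limma with all libraries, members passed the threshold only between E12.5 and E13.5. In Sox1Cre mutants 14 of 55 members passed the threshold, 25.5% of those tested, which is close to the 25.9% of all genes that limma called between these groups. edgeR called 11 members and DESeq2 13. At an unadjusted p under 0.05 there were 17 members, 30.9% of those tested, against 37.9% of all genes. By cluster, 8 of 21 beta members and 2 of 12 alpha members were higher at E13.5 and none lower, whereas 4 of 22 gamma members were lower and none higher. Among all genes 13.8% were called higher and 12.1% lower, and whether the clusters differed from each other was not tested. Median log2 fold changes were 0.71 for alpha, 0.51 for beta and -0.11 for gamma members. Groups did not overlap for 10 members (background 23.1%), of which Pcdha5, Pcdha9, Pcdhb10, Pcdhb13, Pcdhb17 and Pcdhb19 were higher and Pcdhgc3, Pcdhgc4, Pcdhgc5 and Pcdhgb4 lower at E13.5. These counts depended on single libraries. Without A12 there was 1 member called, without A4 5 and without A1 7, with no gamma member lower without A12 or without A1, and a fit of these 8 libraries alone called 3.

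Pcdha9, an alternate alpha isoform, had the largest change of the members called. It was at 44.7, 37.6, 21.9 and 79.3 in Sox1Cre mutants at E13.5 and at 12.3, 9.72, 15.4 and 8.92 at E12.5. The E13.5 libraries were thus all higher, though they spread over a wide range. The log2 fold change was 1.78 with a standard error of 0.379 (limma, adjusted p = 0.00212). It stayed past the threshold in all 8 other settings and in all 9 fits that left out 1 or 2 libraries. In controls Pcdha9 was at 28.3, 24.6, 36.2 and 43.6 at E13.5 and at 32.1, 15.6, 17.5 and 14.8 at E12.5, with overlap and a log2 fold change of 0.74 (adjusted p = 0.218). That value ranged from 0.35 to 0.75 in other settings and from 0.60 to 0.98 with 1 library left out, and never passed the threshold. The difference between the changes in mutants and controls, 1.04, did not pass the threshold (adjusted p = 0.697).

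Pcdha5 was the only member to pass the threshold with age in both genotypes. In controls it was at 37.4, 37.9, 22.4 and 19.2 at E13.5 and at 16.1, 15.6, 10.03 and 14.8 at E12.5. In mutants it was at 22.8, 31.2, 21.9 and 40.1 at E13.5 and at 11.7, 19.4, 16.3 and 15.3 at E12.5. All E13.5 libraries were above all E12.5 libraries in both, with log2 fold changes of 0.96 (adjusted p = 0.0322) and 0.83 (adjusted p = 0.0360). The value in controls stayed past the threshold in 5 of 8 other settings and in 3 of 8 fits that left out 1 library, and not with Xist as a covariate, where the log2 fold change was 1.18 (adjusted p = 0.14). The value in mutants stayed past it in 6 of 8 other settings and in 4 of 9 fits that left out 1 or 2 libraries. Sex and age cannot be told apart in these controls.

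**Figure D5:**
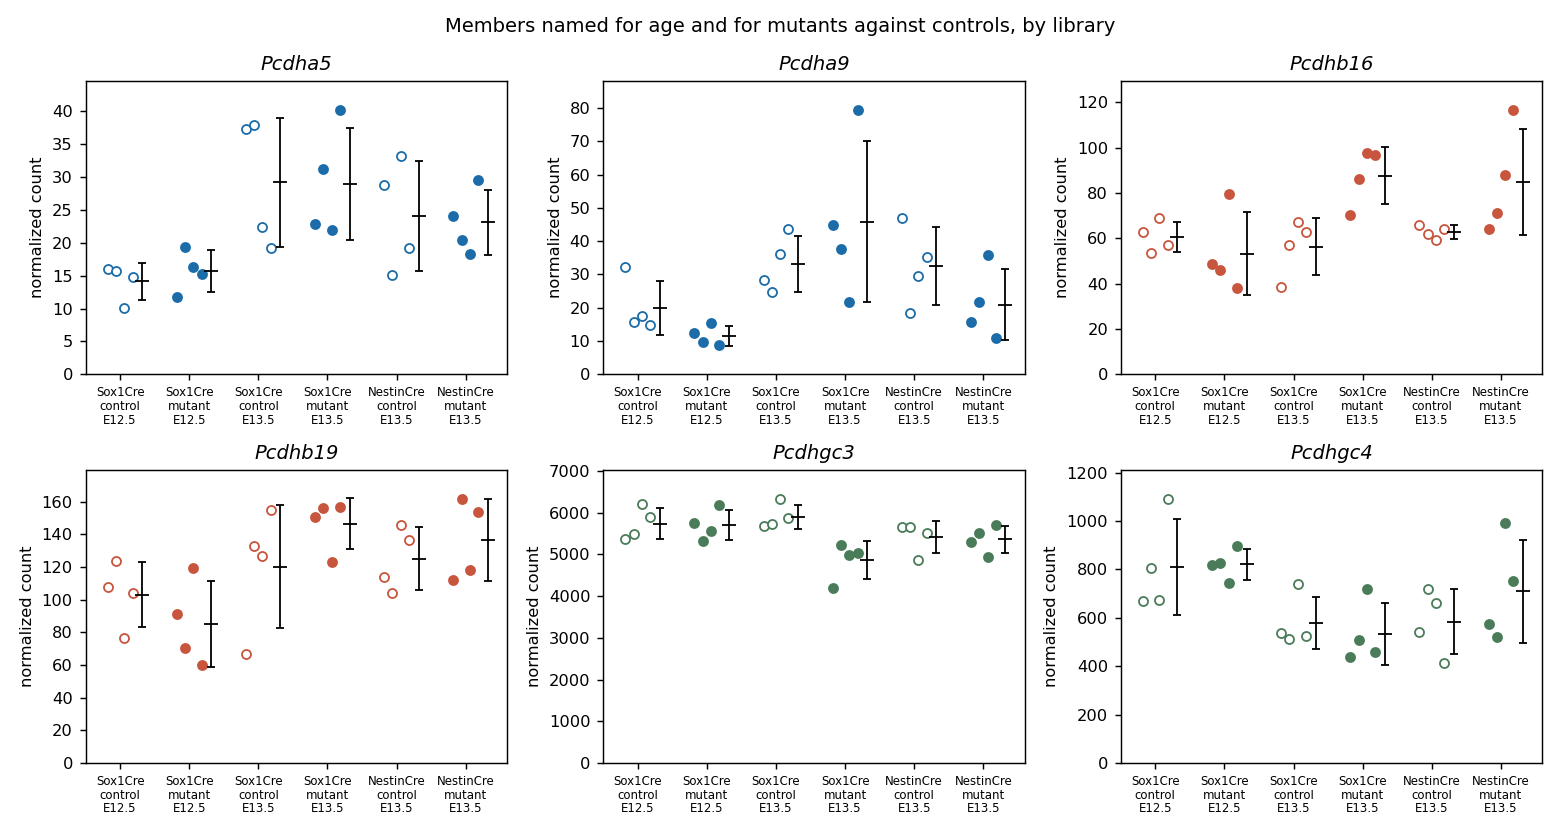
Normalised count (vertical axes, from 0) of Pcdha5, Pcdha9, Pcdhb16, Pcdhb19, Pcdhgc3 and Pcdhgc4 by group; each dot is 1 library, filled for mutants and open for controls, and the bar is the mean ± SD of 4 libraries. Pcdha9 is highest in Sox1Cre mutants at E13.5 (45.9) and lowest in those at E12.5 (11.6), and the mean of Pcdhgc4 is lower at E13.5 than at E12.5 in mutants (533 against 821) and controls (579 against 811) of the Sox1Cre line.

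The 8 beta members that rose with age in Sox1Cre mutants were Pcdhb7, Pcdhb10, Pcdhb13, Pcdhb16, Pcdhb17, Pcdhb18, Pcdhb19 and Pcdhb20, with log2 fold changes from 0.51 to 1.22 and adjusted p from 0.0131 to 0.0456. Pcdhb19 was at 151, 156, 123 and 157 at E13.5 and at 91.2, 70.4, 119 and 59.9 at E12.5. It did not overlap, and its log2 fold change was 0.82 with a standard error of 0.232 (adjusted p = 0.0133). Pcdhb16 was at 48.7, 46.1, 79.7 and 38.2 at E12.5, so that A11 reached into the range of the E13.5 mutants. Its log2 fold change was 0.75 (adjusted p = 0.0131). Pcdhb17 was at nearly the same level in the 4 E13.5 mutants, 142, 142, 139 and 140, and at 115, 83.4, 139 and 56.1 at E12.5, and its log2 fold change of 0.59 was 0.35 without A12 (adjusted p = 0.207). The beta total was 1474 ± 71.5 at E13.5 and 1088 ± 329 at E12.5 (SD, n = 4), a log2 ratio of 0.44 that was 0.66 without A11 and 0.33 without A12. In controls no beta member passed, the median change was 0.10 with 12 of 21 members positive (0.17 with 17 of 21 without A5), and the beta total was 1173 ± 272 at E13.5 and 1143 ± 25.8 at E12.5.

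All 3 gamma C types fell with age in Sox1Cre mutants. Pcdhgc4 was at 440, 508, 721 and 461 at E13.5 and at 820, 826, 742 and 896 at E12.5. The groups did not overlap, and the log2 fold change was -0.65 with a standard error of 0.206 (adjusted p = 0.0247). Pcdhgc5 was at 51.1, 59.1, 59.6 and 34.3 at E13.5 and at 80.2, 65.6, 79.7 and 80.3 at E12.5, a log2 fold change of -0.60 (adjusted p = 0.0364). It stayed past the threshold in 6 of 8 other settings and in 3 of 9 fits that left out 1 or 2 libraries (limma, adjusted p up to 0.146). For Pcdhgc3 the E12.5 mutants were at 5755, 5322, 5559 and 6192, above the E13.5 mutants given earlier, with a log2 fold change of -0.24 (adjusted p = 0.0169). Without A1 the values for Pcdhgc3 and Pcdhgc4 became -0.17 (adjusted p = 0.0673) and -0.57 (adjusted p = 0.0688). The fourth gamma member called was the A type Pcdhga10, with -0.45 (adjusted p = 0.0463). It stayed past the threshold in 3 of 9 fits that left out 1 or 2 libraries, with adjusted p up to 0.434, and was at -0.27 without A1.

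Summed, the gamma C types were at 5441 ± 518 in Sox1Cre mutants at E13.5, below both their controls (6535 ± 417) and the mutants at E12.5 (6604 ± 418; SD, n = 4 each) without overlap. Pcdhgc3 made up most of these sums, with means of 4857, 5897 and 5707 in the same order, so they largely repeat its result. Pcdhgc4 and Pcdhgc5 overlapped between mutants and controls at E13.5. The remaining gamma members summed to 7815 ± 981, 7763 ± 915 and 8532 ± 805 in the same groups, with overlap. The E13.5 mutants enter both comparisons, so these are not separate observations. Neither C type of the alpha cluster passed the threshold. Pcdhac2 was at 237 ± 37.4 at E13.5 and 233 ± 27.9 at E12.5 in mutants, and Pcdhac1 at 27.5 ± 16.2 and 34.1 ± 10.2 (adjusted p = 0.942 and 0.355).

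In Sox1Cre controls only Pcdha5 passed the threshold with age, 1.82% of the members tested, against 11.5% of all genes. edgeR and DESeq2 also called 1 member each, and 6 (10.9%) had an unadjusted p under 0.05, against 26.7% of all genes. Groups did not overlap for that member alone (background 18%). Pcdhgc4 was at 579 ± 109 at E13.5 and 811 ± 198 at E12.5, a log2 fold change of -0.47 (adjusted p = 0.143), and Pcdhgc5 had -0.49 (adjusted p = 0.133). The value of Pcdhgc5 ranged from -0.56 to -0.23 in other settings and from -0.63 to -0.32 with 1 library left out. Pcdhgc3 was at 5897 ± 298 and 5740 ± 375, with a log2 fold change of 0.04 (95% interval -0.11 to 0.18). Pcdhac2 had 0.38 (adjusted p = 0.0824) and Pcdhb2 -0.49 (adjusted p = 0.214), which was -0.29 without A5. Gamma totals were 14298 ± 1048 and 14476 ± 839, and alpha totals 512 ± 68.1 and 400 ± 30.3. In this comparison sex and age cannot be told apart, since Xist, the RNA of the inactive X chromosome, was over 100 in 0 of 4 controls at E13.5 and in 4 of 4 at E12.5. With Xist as a covariate limma called 0 of 16454 genes between these controls, and 2460 had an unadjusted p under 0.05, so that every call with age in controls given here or below was lost, though not every change became smaller, as the values of Pcdha5 above and of Wiz below show. In Sox1Cre mutants it was over 100 in 2 of 4 libraries at each age.

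Markers of cell types differed between the ages. The counts of markers called stand beside 11.5% of all genes called by limma with age in controls and 25.9% in mutants. Of 11 neuron markers, which were led by Map2 and none of which was at 0, 8 rose in controls and 8 in mutants. Their summed normalised count was 44891 at E13.5 and 31407 at E12.5 in controls, and 45592 and 30328 in mutants. CH markers (8 genes, led by Wnt8b, none at 0) went the other way, with 5 lower in controls and 6 in mutants, and sums of 24674 against 42718 and 24151 against 49137. Globin and other erythroid markers summed to 110703 and 179317 in controls and to 100953 and 178637 in mutants. Archicortex markers (8 genes, led by Lhx2, none at 0) were called with age as well, 3 higher and 1 lower in controls and 7 higher and 1 lower in mutants, with sums of 42757 against 33941 and 41798 against 27988. Intermediate progenitor markers (5 genes, led by Neurog2) rose for 3 genes in controls and 2 in mutants, with sums of 9093 against 6350 and 8728 against 5638. Choroid plexus markers summed to 45112 against 22875 in controls, where none passed (limma, 3 at an unadjusted p under 0.05). In mutants they summed to 57838 against 33045, and 2 of 7 rose (28.6%, close to the share of all genes). Meninges markers (8 genes, led by Col3a1) went from 42933 to 36440 in controls, with 1 gene higher, and from 41693 to 30587 in mutants, with 1 higher and 4 lower. Of 7 Cajal-Retzius cell markers, led by Reln, 2 rose in controls, and 2 rose and 3 fell in mutants. Of 8 progenitor markers none passed in controls (4 at an unadjusted p under 0.05), and 4 rose and 1 fell in mutants. The part of this shift in markers in the changes of the protocadherins was not tested.

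The 2 control groups at E13.5 were also compared. They differ in the Cre they carry and in a code in their titles, RLFO for Sox1Cre and RLJK for NestinCre. Line, cohort and Cre allele cannot be told apart in this comparison. Xist was over 100 in 1 of 4 NestinCre controls and in 0 of 4 Sox1Cre controls. No member passed the threshold (limma, edgeR and DESeq2), with 2 at an unadjusted p under 0.05 (3.64%, against 10% of all genes), and limma called 0.243% of all genes. Pcdhgc3 was the only member without overlap (background 6.22%), at 5651, 5657, 4858 and 5511 in NestinCre controls and above all of these in Sox1Cre controls, with a log2 fold change of -0.12 (adjusted p = 0.606). Pcdhac2 was lower in NestinCre controls by value, with -0.38 (adjusted p = 0.323), and Pcdhgc5 had -0.28 (adjusted p = 0.732), which was -0.13 without A7. The Pcdha11 gene that overlaps Gm10544 had 0.71 (adjusted p = 0.697) and the other 0.90 (adjusted p = 0.428). Leaving out 1 library gave 0.35 (without A21) to 1.14 (without A22) for the former and 0.48 (without A5) to 1.18 (without A7) for the latter.

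Genes that control the clusters were next considered. Of 28 regulators (the insulator protein CTCF and cohesin, DNA methylation enzymes, and silencing factors such as Smchd1), none passed the threshold in mutants compared to controls in limma or edgeR, in any of the 3 comparisons, and DESeq2 called 1, Smchd1 at E12.5. At an unadjusted p under 0.05 there were 3, 2 and 4 in Sox1Cre mutants at E13.5, NestinCre mutants and Sox1Cre mutants at E12.5, that is 10.7%, 7.14% and 14.3%, against 11.7% and 6.47% of all genes and, at E12.5, 2217 of all 16454 genes. Ctcf had log2 fold changes of 0.00, 0.00 and -0.07 in the same order, and Smchd1, which silences the clusters as well as the inactive X chromosome, -0.08, -0.09 and -0.17 (adjusted p = 0.518, 0.802 and 0.0796). With age 2 of the 28 passed in controls (7.14%, against 11.5% of all genes) and 3 in mutants (10.7%, against 25.9%). Dnmt3b, the methyltransferase that marks alternate promoters in the early embryo, fell from 396.5 to 237 in controls (-0.76, adjusted p = 0.0143, or -0.48 and 0.306 with Xist as a covariate) and from 418 to 225 in mutants (-0.93, adjusted p = 0.00166). The silencing factor Wiz fell in controls (-0.21, adjusted p = 0.0281, or -0.22 and 0.207 with that covariate), Cbx5, which encodes heterochromatin protein HP1 alpha, fell in mutants (-0.29, adjusted p = 0.0195) and the cohesin subunit Stag2 rose in mutants (0.30, adjusted p = 0.00398). Ctcf had log2 fold changes with age of -0.05 in controls and 0.02 in mutants (adjusted p = 0.454 and 0.827).

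Of 24 partners that act at or below the membrane, none passed in mutants compared to controls in limma, edgeR or DESeq2 (unadjusted p under 0.05 in limma for 5, 2 and 5, that is 20.8%, 8.33% and 20.8%, beside the shares of all genes given for the regulators). With age in Sox1Cre mutants 5 rose and 3 fell, 33.3% of the list against 25.9% of all genes. Marcks, an actin-binding protein downstream of gamma protocadherins and protein kinase C, had the largest rise (0.51, adjusted p = 0.00131), followed by Fyn (0.34), Wasf3 (0.22), Nckap1 (0.18) and Abi1 (0.15), of which the last 3 belong to the WAVE complex that alpha protocadherins recruit. Among those that fell were Aph1a (-0.18), which acts in the cleavage that releases the cytoplasmic tail of protocadherins, and the WAVE subunit Cyfip1 (-0.14). In controls Nckap1 rose (0.16) and Cyfip1 fell (-0.17), 8.33% of the list against 11.5% of all genes.

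Outside the clusters, 29 other protocadherins and cadherins were measured. Pcdh10, a non-clustered protocadherin of axon growth, was at 507 ± 62.9 in Sox1Cre mutants at E13.5 and at 720 ± 49.6 in controls (SD, n = 4), a log2 fold change of -0.51 (adjusted p = 0.0439), and was the only gene of this list to pass in mutants compared to controls, in limma, edgeR and DESeq2 alike (3.45% of the list at E13.5, against 0.924% of all genes). With age 9 rose and 6 fell in mutants (51.7%, against 25.9% of all genes), where the largest values were Cdh13 (1.70), Pcdh15 (1.46), Cdh6 (-1.40) and Fat2 (1.27), and 7 rose and 3 fell in controls (34.5%, against 11.5%), where they were Fat2 (1.78), Cdh13 (1.38), Pcdh20 (1.1) and Dchs2 (1.06).

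Neighbouring genes gave a view of the locus. Of 32 genes within 500 kb, 25 were tested, and none passed in mutants compared to controls in limma, edgeR or DESeq2 (unadjusted p under 0.05 in limma for 0, 0 and 2, the last 8.0% of those tested, beside the shares of all genes given for the regulators). With age 3 passed in controls (12%, against 11.5% of all genes) and 5 in mutants (20%, against 25.9%). Rnf14 rose in controls (0.28) and mutants (0.27) and Rell2 rose in mutants (0.78), while Taf7, which lies between the beta and gamma clusters, fell in both (-0.25 each, adjusted p = 0.0113 and 0.00447). Ankhd1 fell in controls (-0.17), and Hdac3 (-0.15) and Slc35a4 (-0.22) in mutants.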

How the data were processed

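Members, gene lists and tests were chosen with earlier results of these data known. The authors prepared libraries with the KAPA mRNA HyperPrep kit and sequenced them on a HiSeq machine. Per the submitters' processing notes, reads were trimmed with Trimmomatic 0.36, aligned with STAR 2.5.2a to GRCm38 and counted per gene with RSEM 1.2.31. The deposited signal is the rounded RSEM count divided by 1 DESeq2 size factor per library, here called the normalised count. Its values were whole multiples of what 1 read is worth (tolerance 0.01 reads, 100% of values in all 24 libraries), so whole reads were recovered. In A3 1 read is worth 0.994 units, which leaves less room to check this. Every column of values could be tied to a sample (columns with no sample: 0). The lowest number of reads on genes in a library was 16163560, the median 23016925 and the highest 49445219. Pairs of replicates differed by more than counting error (chi-square per degree of freedom from 8.74 to 84.3 over 36 pairs). Whether replicates came from separate litters is not given, so p-values measure the spread between these samples. A count of 3 reads, the limit that a count of 0 allows, were worth 1.42 to 4.38 normalised counts.

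Names, exon lengths and coordinates were taken from GENCODE M21 (GRCm38), in which 51633 of 51912 identifiers have a name. The main model was limma 3.58.1 (lmFit, eBayes with trend; R 4.3.3) on log2(value + 1) of the 16454 genes with at least 10 in at least 4 libraries. It had 1 mean per group, all 24 libraries, no covariates and 18 residual degrees of freedom. A fold change on this scale understates that of low genes. The 8 contrasts were two-sided, with Benjamini-Hochberg adjustment over all genes tested and a threshold of 0.05. The fit was tested on simulated counts. Cluster totals are sums of normalised counts and carry no test. With 4 against 4 libraries an exact permutation test cannot go below 0.0286, the value of each pair of groups without overlap.

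Alternatives were pseudocounts of 0.5 and 5, no filter, a mean of at least 100, quantile normalisation, an Xist covariate, only the libraries compared, edgeR 4.0.16 and DESeq2 1.42.0 on recovered reads, totals scaled by reads on genes, and each library left out. Genes named are members past the threshold in any comparison, C types, the 2 highest and the lowest member per kb of each cluster, the 2 largest rises and falls per comparison among members with a mean of at least 20, members with a library far from its group and, from the other lists, genes past the threshold (the 4 largest where over 8 passed), Ctcf and Smchd1, besides Sox9 and Xist. Other members named were chosen after their values were seen. The result for 1 gene of the other lists is not reported here. Summaries and plots were made in Python 3.11.15 (scipy 1.17.1, pandas 2.3.3, numpy 2.4.6, matplotlib 3.10.9). No sequence of the members is printed, and the strand setting of the counting is not given in the sources used here.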

Additional observations from a re-analysis of the deposited data

Results flagged for a closer look

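Among 348 groups of 4 libraries (58 values of 55 tested members and 3 cluster totals, in 6 groups each), 21 had a highest or lowest library whose gap to the next was above Dixon's 95% limit for 4 values, which is 6.03% of groups. Chance gives about 1 in 20. All values are normalised counts.

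In the alpha cluster, Pcdha2 was at 25.5 in A12 (other Sox1Cre mutants at E12.5 from 12.3 to 14.6) and at 7.08 in A22 (other NestinCre controls from 23.1 to 24.9). Among Sox1Cre controls at E12.5, Pcdha3 was at 19.7 in A16 (others 9.12 to 10.2) and Pcdha9 at 32.1 in A13 (others 14.8 to 17.5). Pcdhac1 was at 49.3 in A9 (others 28.3 to 30.6).

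In the beta cluster, the control A5 was low for 3 neighbouring genes, Pcdhb9 at 14.7 (others 41.2 to 43.6), Pcdhb10 at 18.1 (others 27.5 to 28.2) and Pcdhb11 at 7.93 (others 31.3 to 35.1). Pcdhb12 was at 16.1 in A13 (others 6.27 to 7.82), and Pcdhb21 at 46.3 in A16 (others 58.4 to 58.9). Pcdhb18 was at 68.8 in the mutant A2 (others 86.7 to 90.1). The beta total was 1142 in the NestinCre control A22 (others 1232 to 1250).

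In the gamma cluster, the E12.5 mutant A10 was low for Pcdhgb7 at 518 (others 664 to 677), Pcdhga12 at 278 (others 379 to 382) and Pcdhgc5 at 65.6 (others 79.7 to 80.3). Pcdhgb5 was high in A11 at 742 (others 504 to 539) and in A16 at 593 (others 478 to 487). Pcdhga6 was at 298.8 in A21 (others 209 to 222), Pcdhga10 at 401 in A23 (others 460 to 467), Pcdhga11 at 786 in A20 (others 522 to 561) and Pcdhgc4 at 741 in A7 (others 514 to 536).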

How the results depend on the processing

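No paired analysis was possible because the labels do not say which embryos were littermates. The log2 ratio of the beta total crossed 0 when 1 library was left out between mutants and controls at E12.5 (-0.29 to 0.04), between ages in controls (-0.06 to 0.19) and between the control groups (-0.10 to 0.15), as did that of the gamma total in NestinCre mutants (-0.01 to 0.05) and between ages in controls (-0.05 to 0.03). Over 55 members and 8 comparisons, 187 of 440 log2 fold changes changed sign under at least 1 alternative, of which 0 were past the threshold. They include Pcdhac2 in Sox1Cre mutants at E13.5 (-0.08 to 0.11) and Pcdhgc3 in NestinCre mutants (-0.07 to 0.02) and at E12.5 (-0.05 to 0.04). Of the values of members chosen by the naming rule, under all alternatives, 698 kept their side of the threshold, 84 lost it and 2 gained it. The cause was not tested. Only values past the threshold in the main fit could lose it, and the 698 include values that were not past it, so they do not measure how stable the calls were. Of the limits, alpha and many beta members have few reads and isoforms share exons.

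In Sox1Cre mutants, 14 members differed between ages, 10 higher and 4 lower. Members called numbered 7 with no filter, 6 with a mean of at least 100 and 3 with only the libraries compared. For beta members higher these counts were 4, 3 and 1, and 5 in edgeR, and for gamma members lower 2 with no filter, 1 with only the libraries compared and 0 without A1 and A11, a setting chosen after seeing the data. Of the members called, Pcdha5, Pcdha9, Pcdhb10, Pcdhb13, Pcdhb16, Pcdhb18, Pcdhb20 and Pcdhgc5 had means under 100. They were not tested with a mean of at least 100, so the lower counts of that setting do not show their calls as lost. Leaving out 1 library gave 1 to 15 members, 0 to 12 beta and 0 to 6 gamma.

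In Sox1Cre controls Pcdha5 was not called, leaving 0 members, with no filter, the Xist covariate or only the libraries compared. With a mean of at least 100 no member was called either, but Pcdha5, with a mean of 22.5, was not tested there. Without 1 library there were 0 to 3 members.

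Over all genes, the counts in Sox1Cre mutants compared to controls at E13.5 were 152 in the limma fit, 44 with only the libraries compared, 358 in DESeq2 (1 member, Pcdhgc3), 231 without A1 and A5 (chosen after seeing the data) and 90 to 510 without 1 library (0 to 1 members). In NestinCre mutants 11 genes became 5 with no filter, a mean of at least 100 or edgeR, 2 with the Xist covariate, 37 in DESeq2 and 2 to 7 without 1 library. In Sox1Cre mutants at E12.5, 119 became 76 with only the libraries compared, 294 in DESeq2 and 50 to 139 without 1 library. Between ages, 1892 in controls became 0 with the Xist covariate and 794 to 2629 without 1 library, and 4263 in mutants became 2133 with only the libraries compared and 2948 to 4725 without 1 library. Between the control groups, 40 became 22 with a mean of at least 100, 157 in DESeq2 and 11 to 31 without 1 library. For the difference between Cre lines, 7 became 13 with only the libraries compared, 95 in DESeq2 and 5 to 144 without 1 library, and for that between ages 0 became 20 in DESeq2 and 0 to 1 without 1 library. In the NestinCre, E12.5, control and both difference comparisons no member was called, whichever library was left out.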
